A study of Homo sapiens with 12 samples.

Results

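The genes described here encode the mTOR complexes and their nearest regulators. MTOR, RPTOR, RICTOR and MLST8 encode subunits of the kinase complexes. RHEB, TSC1, TSC2, LAMTOR1 and LAMTOR2 encode regulators, and RPS6KB1 encodes a substrate. They were found in the table by symbol. All 10 have a row among the 16172 genes of the expression table, and all 10 passed the filter on low values (averaging 1 TPM or more across the 12 libraries). TPM, transcripts per 1000000 transcripts, is a share of a library corrected for transcript length, so levels of different genes can be set side by side.

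The samples are H1299 cells, an established human non-small-cell lung cancer line. The cells received siEIF3Gs, an equal mix of 2 siRNAs against EIF3G, or siCtrl, a control siRNA, and were lysed after 72 hours. From each lysate 10% served as input, and mRNA on polysomes (several ribosomes on 1 mRNA) was collected from a sucrose gradient. The 4 groups, each of 3 libraries, are the input and the polysomal RNA of siCtrl cells and the input and the polysomal RNA of siEIF3G cells. All groups were transfected, and the siCtrl libraries serve as the controls. The labels do not say whether libraries of a group come from separate cultures, so every p-value measures the spread between these libraries, which may be technical. Read depth is unknown, since TPM keep no read counts, and in bulk RNA a change in some cells cannot be told apart from a change in all.

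mTOR is a protein kinase that couples nutrients and growth factors to protein synthesis. In mTORC1 it works with raptor (RPTOR) and mLST8, and in mTORC2 with rictor (RICTOR) and mLST8. The GTPase RHEB activates mTORC1 at the lysosome, the TSC1 and TSC2 complex switches RHEB off, and Ragulator, which includes LAMTOR1 and LAMTOR2, anchors the Rag GTPases that bring mTORC1 there. Active mTORC1 phosphorylates S6 kinase (RPS6KB1) and the 4E-BPs, and it favours translation of mRNAs that start with a 5′ terminal oligopyrimidine (TOP) stretch, such as those of ribosomal proteins. EIF3G is a subunit of eIF3, a translation initiation factor.

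The siRNAs define the groups, and their sequences are shown 5′ to 3′ as the labels give them, in lower case because no part is singled out.
siEIF3G-4: gaacaaactcaagggccagaa
siEIF3G-5: gaggtcatcaacggaaacata
siCtrl: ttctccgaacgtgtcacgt
EIF3G, the targeted gene, fell to 6.16% of its siCtrl mean in input RNA and to 6.38% in polysomal RNA.

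The libraries held from 13787 to 14659 genes with a value above 0. KRT18, an epithelial keratin, ranged from 435 to 1934 TPM, and VIM, a mesenchymal filament gene that this line is known to express, from 265 to 3105 TPM, while PECAM1, COL1A1, PDGFRB and ALB, markers of endothelium, fibroblasts and liver, stayed at or below 0.18 TPM. In 3 cases a library stood apart from its group, which bears on most results that follow. These were siCtrl input 1, siEIF3G input 2 and siEIF3G polysomal 3, each with a higher mean correlation across genes with the other fraction of its siRNA (0.957, 0.958 and 0.953) than with its own group (0.922, 0.929 and 0.949).

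In siCtrl input RNA the 10 mRNAs fell into a high and a low set. The high set was LAMTOR1 (236 ± 38.5 TPM, SD, n = 3), MLST8 (158 ± 51.3), RHEB (126 ± 71.6) and LAMTOR2 (120 ± 8.76). The low set was RPS6KB1 (15.4 ± 12.5 TPM, SD, n = 3), RPTOR (10.8 ± 3.55), TSC2 (10.7 ± 2.37), MTOR (10.1 ± 7.84), TSC1 (3.83 ± 2.81) and RICTOR (3.09 ± 2.39). Between LAMTOR2 and RPS6KB1 the libraries did not overlap. No other neighbours in this order differed beyond their spread. The mRNA of the kinase itself was thus in the low set, and that of its partner MLST8 in the high set.

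The order differed in polysomal RNA, where LAMTOR2 came first in both siRNAs. In siCtrl polysomal RNA LAMTOR2 stood at 326 ± 50.2 TPM (SD, n = 3) and LAMTOR1 at 233 ± 31.0, and in siEIF3G polysomal RNA at 269 ± 25.6 and 171 ± 33.1, with no overlap between the 2 genes in either group. At the other end, MTOR (0.783 ± 0.355 TPM, SD, n = 3), TSC1 (0.723 ± 0.256) and RICTOR (0.220 ± 0.149) were below 1 TPM on average in siCtrl polysomal RNA. The summed level of the 10 mRNAs was 694 ± 35.7 TPM (SD, n = 3) in siCtrl input and 750 ± 94.8 in siCtrl polysomal RNA, and 635 ± 13.9 and 640 ± 49.7 TPM in the siEIF3G groups, so the groups overlapped in each siRNA.

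**Figure D1:**
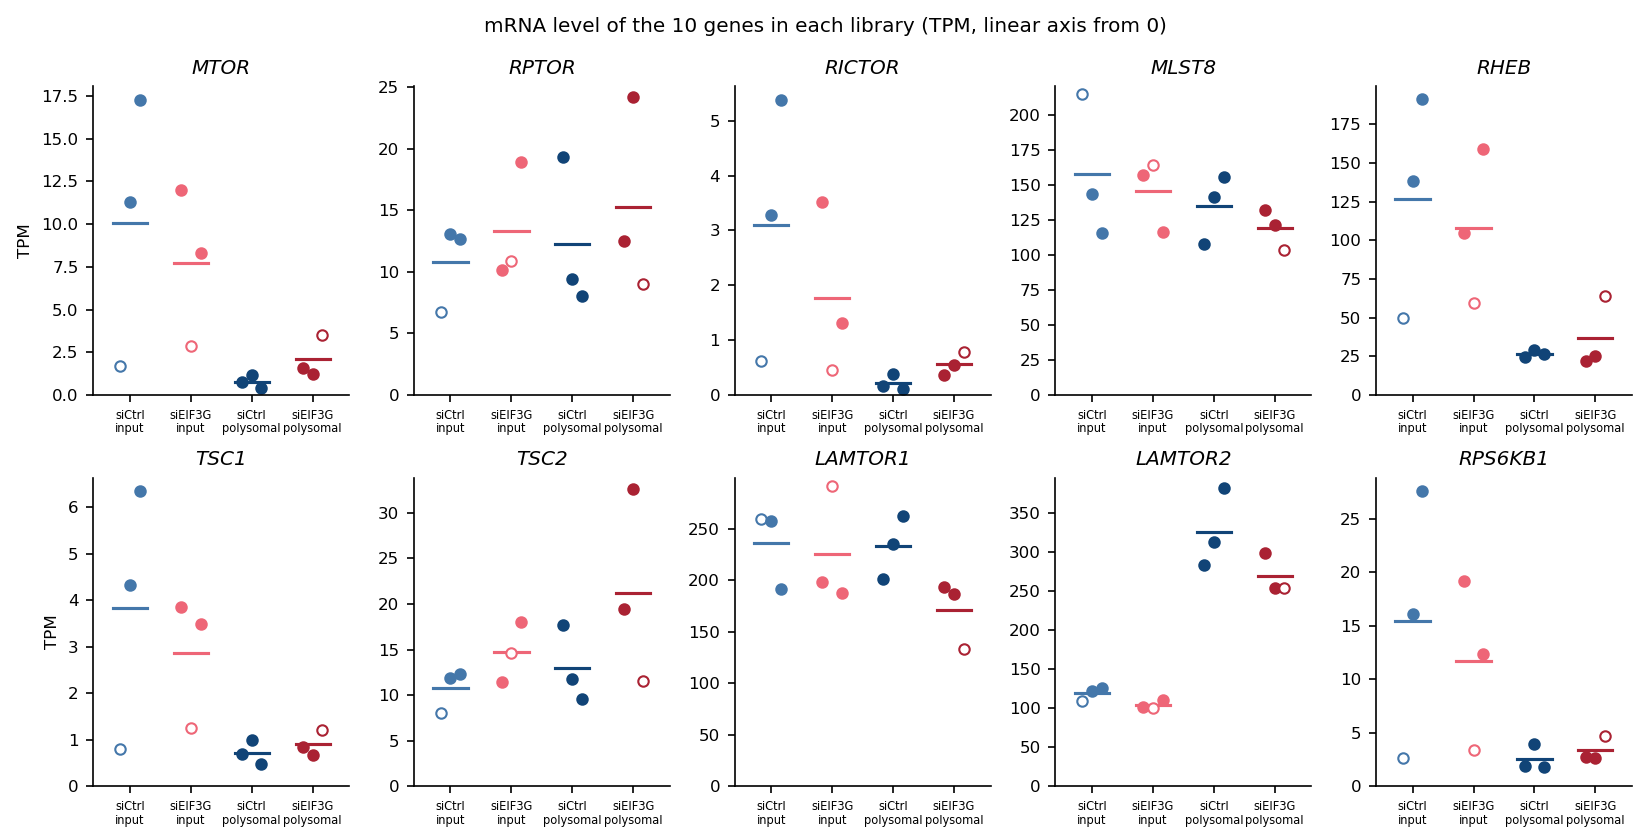
Level of each of the 10 mRNAs in each library, in TPM on a linear axis from 0, with 1 panel per gene. Points are libraries, horizontal lines are group means (n = 3), and open points are the 3 libraries that stood apart. LAMTOR2 lies at 254 TPM or more in all 6 polysomal libraries and at 126 TPM or less in all 6 input libraries.

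Polysomal was compared with input RNA within each siRNA to see which of the mRNAs took a larger or smaller share of the polysomal pool than of the whole pool. LAMTOR2 took a larger share in both siRNAs. MTOR, RHEB and RICTOR took a smaller share in siCtrl cells. The remaining 6 did not pass the test in siCtrl cells, and in siEIF3G cells only LAMTOR2 passed. By limma on log2(TPM + 1), 4 of the 10 were called at an adjusted p under 0.05 in siCtrl cells, where 36.9% of the 10605 genes tested were called, and 1 of 10 in siEIF3G cells, where 3.14% were. The median log2 difference of the 10 was -0.73 in siCtrl and -0.53 in siEIF3G cells, beside -0.96 and -0.49 over all genes tested, so differences are also given relative to those medians. By direction, 1 of the 10 was called higher and 3 lower in siCtrl cells, beside 7.98% (846) and 28.9% (3066) of all genes, and 1 higher and 0 lower in siEIF3G cells, beside 1.81% and 1.33%. With size factors, which set the median of all genes close to 0 (-0.04 in siCtrl), the split over all genes in siCtrl cells was 2835 higher and 1723 lower.

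LAMTOR2, a Ragulator subunit, was the most uniform. Its level was 110, 123 and 126 TPM in siCtrl input and 284, 313 and 381 TPM in siCtrl polysomal RNA. The siEIF3G libraries had 101, 101 and 110 TPM in input and 298, 254 and 255 TPM in polysomal RNA. All polysomal libraries were above all input libraries, those that stood apart included. Its mean was 2.73-fold higher in polysomal RNA in siCtrl and 2.59-fold higher in siEIF3G cells. On the log2(TPM + 1) scale the limma difference was 1.43 (SE 0.20, adjusted p = 0.00207), or 2.39 relative to all genes, in siCtrl cells. In siEIF3G cells it was 1.36 (SE 0.20, adjusted p = 0.00433), or 1.85 relative to all genes. These differences lay above those of 99.5% and 99.4% of the genes tested. The siEIF3G call was lost with size factors (adjusted p = 0.0692), where the difference was larger, at 1.96.

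LAMTOR1, which tethers Ragulator to the lysosomal membrane, did not pass the test. It was at 259, 258 and 192 TPM in siCtrl input and at 201, 235 and 263 TPM in siCtrl polysomal RNA, and these libraries overlapped. With siEIF3G it was at 198, 292 and 187 TPM in input and at 193, 187 and 133 TPM in polysomal RNA. The log2 differences were -0.01 (95% interval -0.55 to 0.52) and -0.39 (-0.93 to 0.15). That LAMTOR2 passed and LAMTOR1 did not is no test of a difference between these 2 mRNAs of 1 complex. Their ratio within each library, given further on, separated the fractions without overlap in both siRNAs. Its exact permutation test did not pass (adjusted p = 0.320).

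MTOR, the kinase, was lower in siCtrl polysomal RNA. It was at 1.71, 11.3 and 17.2 TPM in siCtrl input and at 0.78, 1.14 and 0.43 TPM in siCtrl polysomal RNA. The groups did not overlap, but the lowest input library, siCtrl input 1, was closer to the polysomal libraries than to its own group. The mean was 12.9-fold lower, and the limma log2 difference was -2.27 (SE 0.65, adjusted p = 0.0344), or -1.30 relative to all genes. In siEIF3G cells MTOR was at 11.98, 2.89 and 8.34 TPM in input and at 1.58, 1.20 and 3.51 TPM in polysomal RNA. There siEIF3G input 2 and siEIF3G polysomal 3, both libraries that stood apart, made the groups overlap. The log2 difference was -1.40 (SE 0.65, adjusted p = 0.245), or -0.91 relative to all genes. Of the genes tested 2.94% lay below the siCtrl difference and 3.42% below that in siEIF3G cells. RefSeq lists 1 antisense gene of MTOR, and with no strand of counting given its reads cannot be told apart from those of MTOR.

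RICTOR, which defines mTORC2, was lower as well. It was at 0.61, 3.29 and 5.37 TPM in siCtrl input and at 0.16, 0.39 and 0.11 TPM in siCtrl polysomal RNA, without overlap. The log2 difference was -1.54 (SE 0.49, adjusted p = 0.0408), or -0.58 relative to all genes. In siEIF3G cells it was at 3.52, 0.45 and 1.32 TPM in input and at 0.37, 0.54 and 0.79 TPM in polysomal RNA, with a log2 difference of -0.67 (SE 0.49, adjusted p = 0.390). Of the genes tested 24.2% lay below the siCtrl difference and 37.7% below that in siEIF3G cells. At these low levels the pseudocount of 1 TPM makes the log2 difference smaller than the ratio of means, which was 14.0-fold in siCtrl cells. RICTOR passed the filter of 1 TPM only through its input libraries. It averaged 3.09 and 1.76 TPM in siCtrl and siEIF3G input, but 0.220 and 0.567 TPM in the polysomal groups. A lower value on polysomes is thus partly built into its selection. Without a filter RICTOR was not called, and neither were MTOR and RHEB.

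RPTOR, which defines mTORC1 and presents its substrates, did not share this direction. It was at 6.73, 13.1 and 12.7 TPM in siCtrl input and at 19.3, 9.45 and 8.02 TPM in siCtrl polysomal RNA. The groups overlapped, and the log2 differences were 0.12 (95% interval -0.87 to 1.11) in siCtrl and 0.12 (-0.87 to 1.11) in siEIF3G cells. MLST8, the subunit common to both complexes, ranged from 116 to 215 TPM in siCtrl input and from 108 to 156 TPM in siCtrl polysomal RNA, with log2 differences of -0.19 (-0.78 to 0.39) and -0.28 (-0.86 to 0.30).

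RHEB, the GTPase that activates mTORC1, was at 49.6, 138 and 191 TPM in siCtrl input and at 24.6, 29.3 and 26.5 TPM in siCtrl polysomal RNA. The groups did not overlap, the mean was 4.72-fold lower, and the log2 difference was -2.00 (SE 0.51, adjusted p = 0.0276), or -1.03 relative to all genes. In siEIF3G cells RHEB was at 105, 59.4 and 159 TPM in input and at 22.3, 25.2 and 63.8 TPM in polysomal RNA. The overlap there came from siEIF3G polysomal 3, which lay above siEIF3G input 2. The log2 difference in siEIF3G cells was -1.56 (SE 0.51, adjusted p = 0.121). Of the genes tested 7.21% lay below the siCtrl difference and 1.73% below that in siEIF3G cells. RefSeq lists 3 pseudogenes named after RHEB, so some of its reads may be shared.

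Of the subunits of the TSC complex, which inhibits RHEB, neither passed the test. TSC1, the scaffold, was at 0.80, 4.34 and 6.35 TPM in siCtrl input and at 0.70, 0.99 and 0.48 TPM in siCtrl polysomal RNA. Only siCtrl input 1 reached into the polysomal range, and the log2 difference was -1.27 (SE 0.48, adjusted p = 0.0516). In siEIF3G cells TSC1 was at 3.85, 1.25 and 3.50 TPM in input and at 0.85, 0.67 and 1.22 TPM in polysomal RNA, without overlap, with a difference of -0.95 (SE 0.48, adjusted p = 0.280). Like RICTOR, TSC1 passed the filter only through input, since it averaged 0.723 and 0.913 TPM in the polysomal groups. Its direction is thus partly built in as well. TSC2, the GTPase-activating subunit, was at 8.02, 11.9 and 12.3 TPM in siCtrl input and at 17.7, 11.8 and 9.58 TPM in siCtrl polysomal RNA. Its log2 differences were 0.24 (95% interval -0.63 to 1.11) and 0.41 (-0.46 to 1.27), and its groups overlapped in both siRNAs.

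RPS6KB1, which encodes the S6 kinase that mTORC1 activates, was at 2.62, 16.1 and 27.6 TPM in siCtrl input and at 1.91, 3.97 and 1.86 TPM in siCtrl polysomal RNA. In siEIF3G cells it was at 19.2, 3.45 and 12.4 TPM in input and at 2.77, 2.63 and 4.71 TPM in polysomal RNA. In both siRNAs the overlap involved libraries that stood apart. The log2 differences were -1.81 (SE 0.71, adjusted p = 0.0552) and -1.31 (SE 0.71, adjusted p = 0.302).

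Counted by overlap of libraries, 1 of the 10 (LAMTOR2) was higher and 3 (MTOR, RHEB and RICTOR) were lower in polysomal RNA of siCtrl cells without overlap. Over all genes tested these shares were 16.9% and 28.9%. In siEIF3G cells 1 (LAMTOR2) was higher and 1 (TSC1) was lower, beside 9.40% and 12.7% of all genes. The number of lower members is thus close to the background. Values relative to the median of all genes are given above for LAMTOR2 and MTOR, and for RHEB and RICTOR in siCtrl cells. The others in siCtrl cells were TSC2 (1.20), RPTOR (1.09), LAMTOR1 (0.95), MLST8 (0.77), TSC1 (-0.31) and RPS6KB1 (-0.84). For siEIF3G cells the rest were TSC2 (0.90), RPTOR (0.61), MLST8 (0.21), LAMTOR1 (0.10), RICTOR (-0.18), TSC1 (-0.45), RPS6KB1 (-0.82) and RHEB (-1.07).

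**Figure D2:**
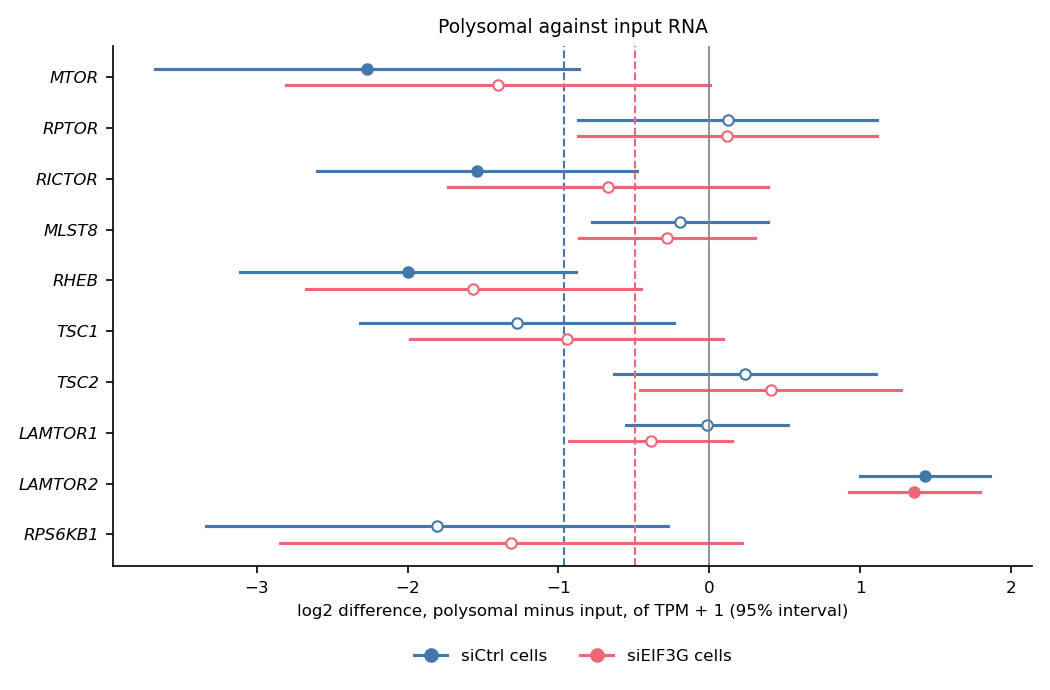
Log2 difference between polysomal and input RNA for each of the 10 mRNAs on the log2(TPM + 1) scale, with 95% intervals from limma, in siCtrl and siEIF3G cells. Filled points have an adjusted p under 0.05, and dashed lines mark the median of all genes tested (-0.96 in siCtrl, -0.49 in siEIF3G). LAMTOR2 is the only mRNA with filled points in both siRNAs, at 1.43 and 1.36.

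The calls of lower members rested on few libraries, as calls over all genes did. Leaving out siCtrl input 2 or 3, or any siCtrl polysomal library, left LAMTOR2 as the only member called in siCtrl cells. Calls over all genes tested fell from 3912 to between 130 and 273 in these settings. The adjusted p then ranged from 0.0687 to 0.147 for MTOR, from 0.0687 to 0.122 for RHEB and from 0.0687 to 0.175 for RICTOR. MTOR was also lost without siEIF3G polysomal 1 (0.0517), and RICTOR without siEIF3G input 3 (0.0501), siEIF3G polysomal 1 (0.0582) or siEIF3G polysomal 2 (0.0543). Calls over all genes numbered 1097 to 2408 there. TSC1 and RPS6KB1 were called without siCtrl input 1 (0.00163 and 0.00191) or without siEIF3G input 2 (0.0337 and 0.0328). Those settings called 7185 and 5775 of all genes tested. In siEIF3G cells RHEB was called without siCtrl input 1 (0.0385) or siEIF3G polysomal 3 (0.0440). There 785 and 788 of all genes were called, beside 333 with every library kept.

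With all 3 libraries that stood apart left out, which leaves 2 libraries in 3 of the groups, the same 6 members were called in both siRNAs. These were LAMTOR2 (higher) and MTOR, RHEB, RICTOR, TSC1 and RPS6KB1 (lower). The log2 differences of MTOR were then -3.09 in siCtrl and -2.21 in siEIF3G cells, and those of LAMTOR2 were 1.37 in both. Over all genes 7960 and 7541 were called under that setting, so most of the table passed with them. With size factors RPTOR (1.20, adjusted p = 0.0422) and TSC2 (1.32, adjusted p = 0.0344) were called higher in siCtrl cells and RHEB (-0.84, adjusted p = 0.0693) was no longer called. MTOR (-1.47, adjusted p = 0.00926) and RICTOR (-0.99, adjusted p = 0.0150) were called lower there too.

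Because mTORC1 is known for its hold on TOP mRNAs, the RefSeq start sites (GRCh38.p14) of the members called in siCtrl cells are shown, with that of RPS6, a ribosomal protein whose mRNA has such a start, for reference. Each line holds 25 bases before the start in lower case and the first 5 transcribed bases in capitals, on the gene's own strand.
LAMTOR2: gccaggcgaagaaactacaactcccAGGGC
MTOR: cagggctgggaaccctccttccctcGCTCC
RICTOR: cgcgcgattgggcgaggtttccggtGTTGT
RHEB: taattaaaaagcggcggaagaaggtGGGAG
RPS6: gacctgcgctaagcggaagttggccCTCTT
These windows lie at chr1:156054757-156054786 (plus strand, LAMTOR2), chr1:11262547-11262576 (minus, MTOR), chr5:39074395-39074424 (minus, RICTOR), chr7:151519891-151519920 (minus, RHEB) and chr9:19380232-19380261 (minus, RPS6). Promoter entries were found for 9 of the 10 symbols, not for MLST8, and TSC2 has 2 entries. A start of C followed by at least 4 bases that are C or T, read on the transcribed strand only, was found in 0 of the 10 entries of the members. It was found in 4.85% of 18541 entries of genes in the table and in 56.8% of the 74 entries of ribosomal protein genes. These letters describe annotated starts, not the starts used in H1299 cells.

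Ratios of partner mRNAs within a library do not depend on scaling between libraries. The ratio of LAMTOR1 to LAMTOR2 was 2.36, 2.10 and 1.52 in siCtrl input and 0.708, 0.752 and 0.689 in siCtrl polysomal RNA. In siEIF3G cells it was 1.96, 2.90 and 1.70 in input and 0.648, 0.736 and 0.523 in polysomal RNA. LAMTOR1 was thus the more abundant mRNA of this pair in all 6 input libraries and LAMTOR2 in all 6 polysomal ones. The ratio of RICTOR to RPTOR, the mRNAs that define mTORC2 and mTORC1, had a geometric mean of 0.213 in siCtrl input and of 0.0167 in siCtrl polysomal RNA, without overlap. The ratio of TSC1 to TSC2 was 0.266 and 0.0550 in the same groups, again without overlap. Its nearest libraries were at 0.0998 (siCtrl input 1, which stood apart) and 0.0838. These ratios have no pseudocount, and in siCtrl polysomal RNA they rest on low values. RICTOR was there at 0.11 to 0.39 TPM and TSC1 at 0.48 to 0.99 TPM. In siEIF3G cells the ratios of RICTOR to RPTOR and of TSC1 to TSC2 were lower in polysomal RNA by 2.58-fold and 3.89-fold, with overlap.

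The ratio of MTOR to MLST8 was 0.00725, 0.00806 and 0.00276 in siCtrl polysomal and 0.0119, 0.00989 and 0.0338 in siEIF3G polysomal RNA. All 3 siEIF3G libraries were above all 3 siCtrl libraries, by 2.91-fold between geometric means. The exact permutation test (two-sided, 3 against 3) cannot give a p below 0.10. Of the 16 comparisons of ratios 5 reached that value: LAMTOR1 to LAMTOR2 between fractions in each siRNA, RICTOR to RPTOR and TSC1 to TSC2 between fractions in siCtrl cells, and MTOR to MLST8 between siRNAs in polysomal RNA. Adjusted over the 16 exact tests, their p was 0.320, so none passed.

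**Figure D3:**
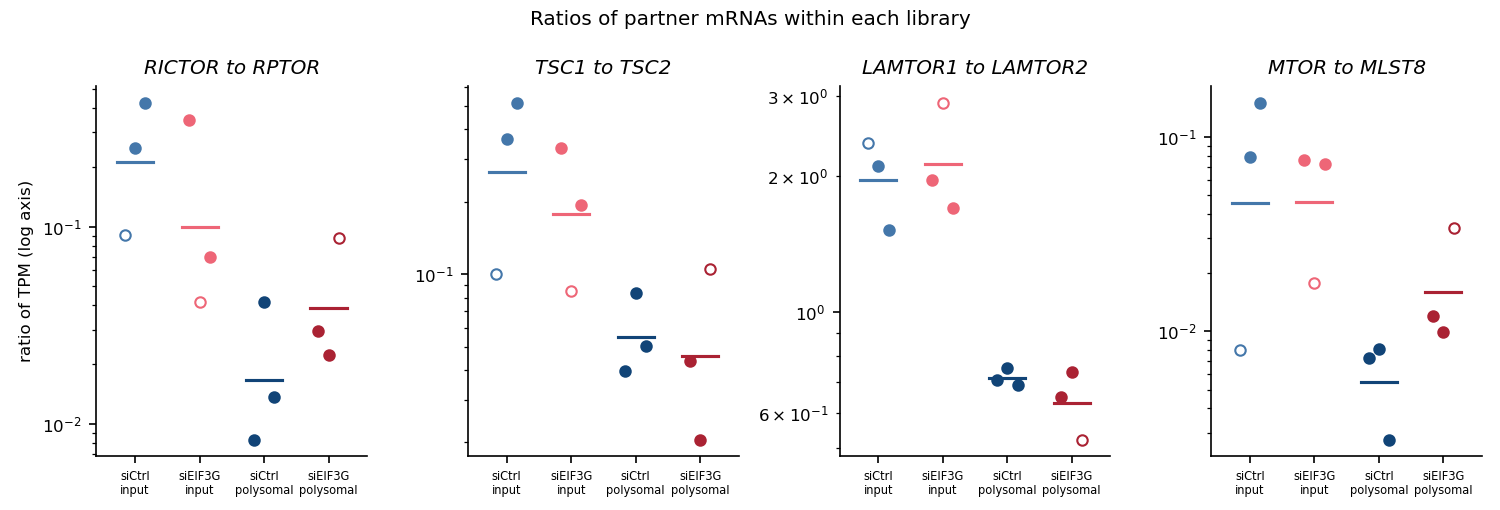
Ratio of the TPM of 2 partner mRNAs within each library, on log axes, in the 4 groups. Points are libraries, lines are geometric means (n = 3), and open points are the 3 libraries that stood apart. The ratio of LAMTOR1 to LAMTOR2 is 1.52 or more in every input library and 0.752 or less in every polysomal library.

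The knockdown was compared with siCtrl in each fraction to see whether loss of EIF3G changed these mRNAs. None of the 10 passed the test in input RNA, in polysomal RNA or in the difference between both effects. In input RNA limma called 0 of the 10 (0 at an unadjusted p under 0.05), while 0.0189% of all genes (2 genes, EIF3G among them) were called and 1.36% (144) had an unadjusted p under 0.05. In polysomal RNA it called 0 of the 10 (0 unadjusted), again beside 0.0189% (2 genes), with 6.69% (709 genes) at an unadjusted p under 0.05. In the difference of effects it called 0 of the 10 (0 unadjusted), beside 0% of all genes, with 0.179% (19 genes) at an unadjusted p under 0.05. The intervals are wide, so changes of the sizes that follow are not excluded for any member.

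In input RNA the differences were small next to the spread. The largest were in RICTOR, with -0.51 (95% interval -1.57 to 0.55), TSC2, with 0.42 (-0.45 to 1.29), and RPTOR, with 0.28 (-0.71 to 1.27). The narrowest intervals were those of LAMTOR2, with -0.20 (-0.63 to 0.23), and LAMTOR1, with -0.08 (-0.62 to 0.46). RPS6KB1 (-0.19), TSC1 (-0.17), RHEB (-0.14), MTOR (-0.12) and MLST8 (-0.08) lay closer to 0, but for RPS6KB1 the interval spans -1.72 to 1.35. The median of the 10 was -0.13, beside -0.05 over all genes. None of the 10 had siEIF3G libraries all above or all below the siCtrl libraries, which 1.88% and 1.80% of all genes had.

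In polysomal RNA the median of the 10 was 0.29, beside 0.33 over all genes. MTOR was at 0.78, 1.14 and 0.43 TPM in siCtrl and at 1.58, 1.20 and 3.51 TPM in siEIF3G cells. The siEIF3G libraries were all higher, the nearest pair being 1.14 and 1.20 TPM, and the highest was siEIF3G polysomal 3. The log2 difference was 0.74 (95% interval -0.66 to 2.15, adjusted p = 0.664), and 0.44 (adjusted p = 0.474) without the libraries that stood apart. LAMTOR1 was the 1 member lower without overlap, at 201, 235 and 263 TPM in siCtrl and at 193, 187 and 133 TPM in siEIF3G cells. Its log2 difference was -0.45 (-0.99 to 0.08, adjusted p = 0.650), or -0.79 relative to all genes. Over all genes 21.6% were higher and 7.61% lower without overlap. With 10 genes, 1 in each direction is too few to set the members apart from these shares.

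The other members overlapped between siRNAs in polysomal RNA. TSC2 ranged from 9.58 to 17.7 TPM in siCtrl and from 11.6 to 32.6 TPM in siEIF3G cells, a log2 difference of 0.59 (95% interval -0.28 to 1.46). Without the libraries that stood apart it was 0.94 (adjusted p = 0.265). RICTOR (0.36), RPS6KB1 (0.31), RHEB (0.30), RPTOR (0.28) and TSC1 (0.15) were positive, and LAMTOR2 (-0.27) and MLST8 (-0.17) were negative, all with intervals that include 0. With size factors the signs of RPTOR (-0.22), RHEB (-0.23), TSC1 (-0.10) and RPS6KB1 (-0.10) turned.

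The difference of the knockdown effects asks whether the share on polysomes relative to input changed with EIF3G. It was most positive in RICTOR, at 0.87 (95% interval -0.63 to 2.37), and MTOR, at 0.87 (-1.12 to 2.86), and most negative in LAMTOR1, at -0.37 (-1.14 to 0.39). LAMTOR2 was at -0.07 (-0.68 to 0.54), and RHEB at 0.43 (-1.14 to 2.01). The smallest adjusted p among the 10 was 0.908. MTOR, RHEB and RICTOR were called lower on polysomes in siCtrl and not in siEIF3G cells, and this test of the difference itself did not separate the siRNAs for any of them.

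**Figure D4:**
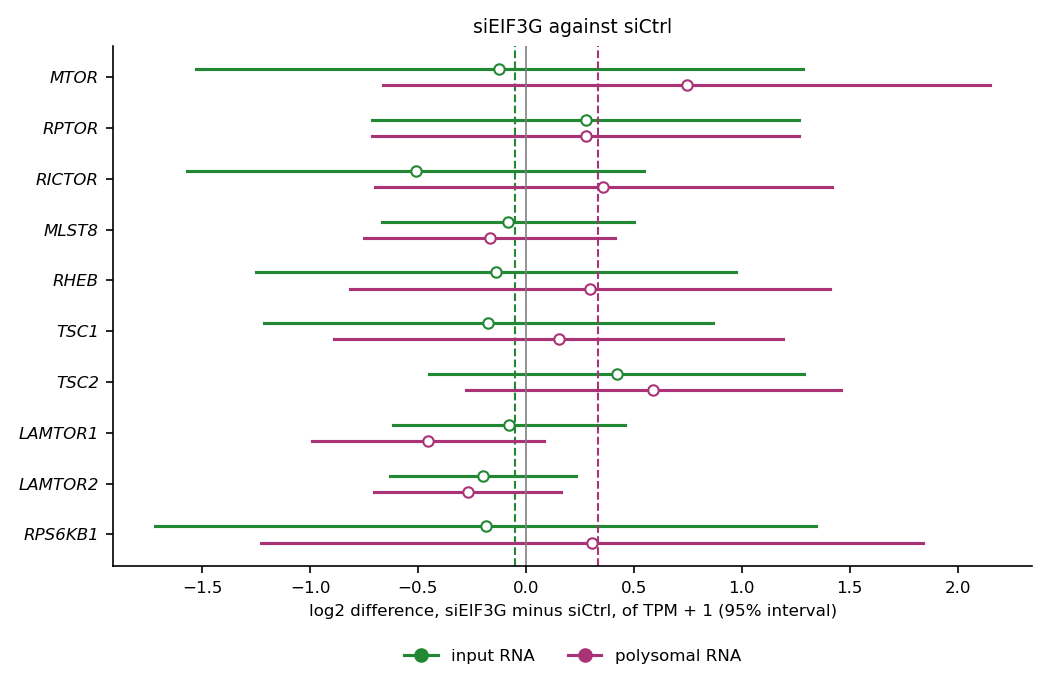
Log2 difference between siEIF3G and siCtrl cells for each of the 10 mRNAs on the log2(TPM + 1) scale, with 95% intervals from limma, in input and polysomal RNA. Open points have an adjusted p of 0.05 or more, and dashed lines mark the median of all genes tested (-0.05 in input, 0.33 in polysomal RNA). All points are open and all intervals include 0.

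Within groups the members varied in 3 ways. MTOR, TSC1, RPS6KB1, RHEB and RICTOR moved together from library to library. In all 5 of them siCtrl input 1 and siEIF3G input 2 were the lowest of their groups and siEIF3G polysomal 3 the highest. The first axis of within-group variation, which holds 78.0% of that variance over all genes, held 96.1% of it for MTOR, 94.7% for TSC1, 92.5% for RPS6KB1, 86.2% for RHEB and 80.2% for RICTOR. MLST8 (67.1%) and LAMTOR1 (62.8%) lay on the same axis with the opposite sign. LAMTOR2 (2.55%), TSC2 (0.571%) and RPTOR (8.81%) hardly took part.

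The spread differed accordingly. The within-group SD on the log2(TPM + 1) scale was 0.14 for LAMTOR2, 0.28 for LAMTOR1 and 0.31 for MLST8, below the median of 0.56 over all genes. It was 0.91 for MTOR and 1.00 for RPS6KB1. The siEIF3G and siCtrl differences of the last 2 are therefore the least certain of the 10. What sets the position of a library along this axis was not tested.

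With each library's position on this axis as a term in the model, MTOR was called in the polysomal knockdown comparison (0.74, adjusted p = 0.00555) and in the difference of effects (0.87, adjusted p = 0.0296). Over all genes 3855 and 1912 were called then. The axis was computed from the same values, MTOR included, so those p-values are too small. Without the 3 libraries that stood apart neither was called, at 0.44 (adjusted p = 0.474) and 0.88 (adjusted p = 0.566), and 4 and 0 genes were called over all, so the difference of effects was as large as before while its call was lost.

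**Figure D5:**
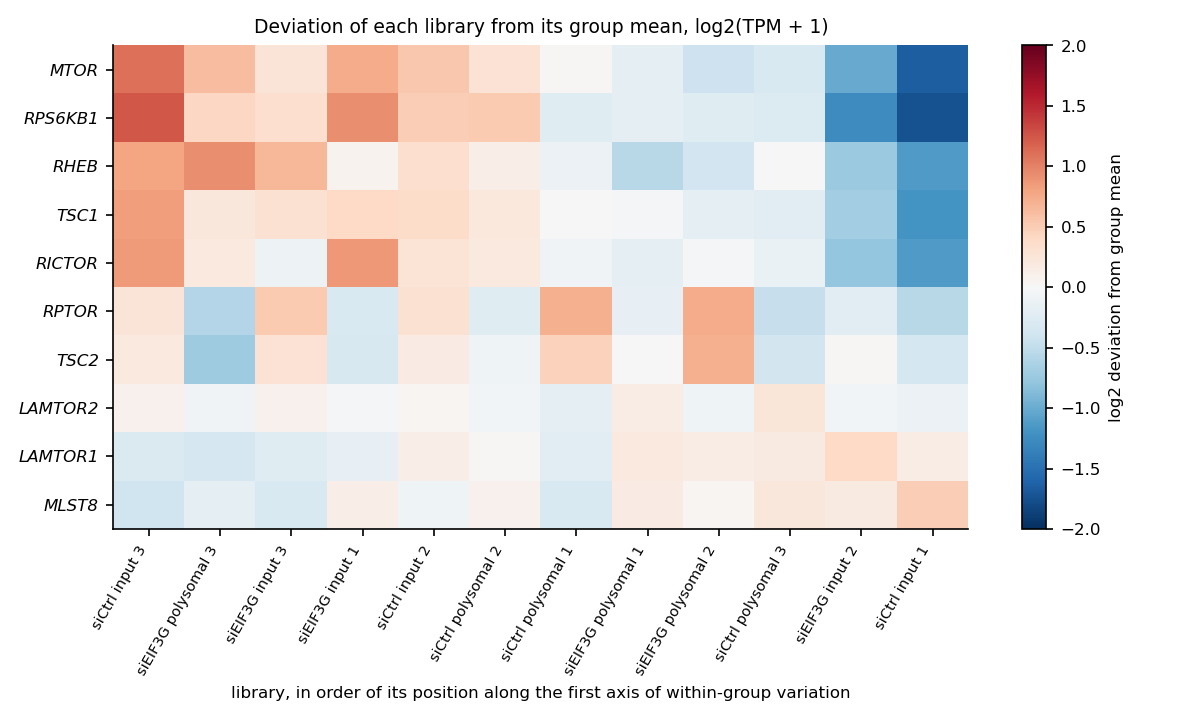
Deviation of each library from its group mean on the log2(TPM + 1) scale, for the 10 mRNAs (rows) and 12 libraries (columns, ordered along the first axis of within-group variation). Red is above and blue below the group mean. MTOR, RPS6KB1, RHEB, TSC1 and RICTOR change colour together from left to right, while LAMTOR2 stays near 0 in every library.

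The genes whose profile over the 12 libraries was closest to that of a member were found by the root mean square difference of log2(TPM + 1) after centring each gene. For MTOR they were KLHL5 (0.13) and SVIL (0.14), for RICTOR CHD9 (0.07) and PHACTR2 (0.09), and for TSC1 TET3 (0.09) and PRKX (0.09). For RHEB they were VAMP3 (0.16) and POPDC3 (0.17), and for RPS6KB1 TRAK2 (0.12) and CARNMT1 (0.14). For LAMTOR2 they were GSTO1 (0.13) and MRPS26 (0.15), for LAMTOR1 SH2B2 (0.09) and BANF1 (0.10), and for MLST8 MPST (0.10). For RPTOR they were CC2D1B (0.10) and CTIF (0.11), and for TSC2 PTCD1 (0.11) and CTC1 (0.12). The members' own SD over the 12 libraries ranged from 0.30 (MLST8) to 1.26 (MTOR). Closeness was the rule of choice here and is given as a description.

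A wider list of 66 genes of the pathway had 64 genes in the table and 60 tested. In siCtrl cells 4 of the 60 (6.67%) were called higher and 13 (21.7%) lower in polysomal RNA, both below the shares of 7.98% and 28.9% over all genes, with a median of -0.72 beside -0.96. The higher ones were KPTN (1.35), a KICSTOR subunit, DDIT4 (1.07), a stress-induced inhibitor of mTORC1, and WDR24 (1.01) and NPRL2 (0.89), subunits of GATOR2 and GATOR1. KICSTOR and the GATOR complexes carry amino acid signals to the Rag GTPases. Among the lower ones was MAPKAP1 (-2.33), which encodes the mTORC2 subunit SIN1. LAMTOR3 (-1.58), another Ragulator subunit, and RRAGD (-1.49), a Rag GTPase, were lower too, in contrast to LAMTOR2. Relative to all genes LAMTOR3 was at -0.61 and RRAGD at -0.53, beside -1.36 for MAPKAP1.

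Also called lower in siCtrl cells were LPIN1 (-2.61), EIF4B (-2.56), LARP1 (-2.36), SGK1 (-1.64) and EIF4EBP2 (-1.34), which act downstream of the mTOR complexes, PDPK1 (-1.67) of the PI3K branch, FNIP1 (-1.82), a folliculin partner, and TTI1 (-1.79), which helps assemble mTOR. Relative to all genes these lay between -1.64 (LPIN1) and -0.37 (EIF4EBP2). LARP1 binds TOP mRNAs. FNIP1 averaged 0.520 TPM in siCtrl polysomal RNA, below the filter of 1 TPM, so its place among the genes tested rests largely on input. In siEIF3G cells MAPKAP1 (-2.28, adjusted p = 0.0140) and KPTN (1.37, adjusted p = 0.0314) were called, 2 of the 60, with a median of -0.30 beside -0.49. These counts rested on single libraries, as those over all genes did. In siCtrl cells 0 of the 60 were called without siCtrl input 2, 1 without siCtrl input 3 or any siCtrl polysomal library, and 35 without siCtrl input 1. Calls over all 10605 genes were 145, 130 to 273, and 7185 in those settings, beside 3912 with every library kept. In siEIF3G cells 0 were called without siEIF3G input 1 or 3 or siEIF3G polysomal 1 or 2, where 61, 150, 44 and 76 of all genes were. Without all 3 libraries that stood apart 41 and 38 were called in siCtrl and siEIF3G cells, where 7960 and 7541 of the 10605 genes were.

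None of the 60 was called by limma in input RNA, polysomal RNA or the difference of knockdown effects. At an unadjusted p under 0.05 there were 2 (3.33%), 9 (15.0%) and 0, beside 1.36%, 6.69% and 0.179% of all genes. Their medians were -0.09, 0.23 and 0.30, beside -0.05, 0.33 and 0.38 over all genes. In input RNA the most negative differences were those of EIF4EBP3 (-0.87), a 4E-BP, and LAMTOR4 (-0.85), a Ragulator subunit, and the most positive those of SESN2 (1.24), a leucine sensor, and ITFG2 (0.62), a KICSTOR subunit. In polysomal RNA PIK3R2 (-1.07) and EIF4EBP3 (-0.86) were the most negative, and EIF4B (1.45) and SGK1 (1.27) the most positive. Relative to all genes these were at -1.41, -1.19, 1.11 and 0.94. Of the 9 at an unadjusted p under 0.05, PIK3R2, EIF4EBP3, AKT1S1, EIF4EBP1, AKT1 and STK11 were lower, and EIF4B, SGK1 and RPS6 higher. Over all genes 72.7% of the differences were positive. In the difference of effects PIK3R2 (-0.71) and AKT1 (-0.57) were the most negative, and PDCD4 (1.29), a translation inhibitor degraded after S6 kinase phosphorylates it, and EIF4B (1.28) the most positive. Several of these values rested on 1 library. SESN2 in input RNA was 0.44 without siEIF3G input 3, and LAMTOR4 and ITFG2 were -0.44 and 0.27 without siCtrl input 1. Without siEIF3G polysomal 3 PIK3R2 was -0.50 in polysomal RNA, and PIK3R2 and AKT1 were -0.14 and -0.15 in the difference of effects. PDCD4 and EIF4B were both 0.68 in that difference without siEIF3G input 2.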

How the data were processed

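RNA from 12 libraries was sequenced after enrichment with oligo(dT), per the labels' protocols. The values are the authors' deposited TPM per gene and library, made with RSEM 1.3.1 and GRCh38.p13 per the submitters' processing notes. The aligner, the annotation and the strand of counting were not given in the sources used here. Since the values of a library add up to 1000000, read depth is unknown and counting error could not be computed. A change of all mRNAs alike does not show in such shares.

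Values were tested as log2(TPM + 1), a scale that understates changes of low genes, for the 10605 of 16172 genes that averaged 1 TPM or more. A model of 4 group means was fitted with limma 3.58.1 (R 4.3.3, mean-variance trend, 8 residual degrees of freedom), with Benjamini-Hochberg adjustment over all genes tested in each of 5 comparisons and a threshold of 0.05. The procedure was run on simulated data with independent noise for each gene and library. These data have a shared axis of within-group variation, so that run does not show how the procedure performs on them. Ratios of TPM were compared by exact permutation. The members, the wider list and the alternatives were chosen with earlier results of these data known. Named genes are the 10 members, EIF3G as the check of the knockdown, genes of the wider list that were called, or where none was, the 2 most positive and 2 most negative with a mean of at least 5 TPM, and the 2 genes closest in profile to each member. Some genes that this rule names are left out of the text. Outside this rule, genes of the wider list at an unadjusted p under 0.05 in the polysomal knockdown comparison are named too. Input and polysomal libraries were tested as unpaired, since the labels do not tie a replicate number to a lysate. Same-numbered libraries did not deviate together throughout (correlations of deviations from -0.69 to 0.71), so the main fit has no block. With 3 libraries per group these correlations cannot show whether same-numbered libraries share a lysate. Alternatives were pseudocounts of 0.1 and 5, a minimum of 5 TPM and none at all, size factors, quantile normalization, a total without ribosomal protein genes, no trend, robust moderation, the compared groups alone, a replicate block and each library left out. Leaving out 3 libraries and the axis term were added with the data known. PTPRC, CD3E and CDH5, and SAMTOR and GRB10 of the wider list, were not analysed here. Promoter sequences are from RefSeq (GRCh38.p14).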

Additional observations from a re-analysis of the deposited data

How the results depend on the processing

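LAMTOR2 was higher in polysomal RNA in every alternative run, and was called in all 25 in siCtrl cells and in 24 of 25 in siEIF3G cells, the exception being size factors. In siCtrl cells the number of the 10 members called, 4 in the main analysis, was 2 (LAMTOR2 and RHEB) with a pseudocount of 5 or with only the groups compared, 1 without a filter (LAMTOR2, with MTOR, RHEB and RICTOR lost), 3 with a minimum of 5 TPM and 3 with the replicate block (RICTOR lost, adjusted p = 0.0540). It was 5 with a pseudocount of 0.1 and with size factors, 6 with a total without ribosomal protein genes, without the 3 libraries that stood apart and with the axis term, and 1 to 6 with a library left out. In siEIF3G cells it was 0 with size factors, 6 without the 3 libraries that stood apart, 6 with the axis term, 1 with the replicate block and 1 to 2 with a library left out. In the polysomal knockdown comparison and in the difference of effects it was 1 with the axis term (MTOR) and 0 otherwise, the replicate block included. The number of all genes called ranged from 1 to 28 in the input knockdown comparison, from 1 to 3855 in the polysomal one, from 0 to 1912 in the difference, from 130 to 7960 between fractions in siCtrl and from 44 to 7541 in siEIF3G cells. A minimum of 5 TPM leaves RICTOR and TSC1 untested.

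The log2 differences that changed sign were uncalled ones, and the cause was not tested. In the input knockdown comparison MLST8 was 0.034 with quantile normalization, 0.025 with a total without ribosomal protein genes and 0.069 without the 3 libraries, and LAMTOR1 was 0.023 and 0.029 in the first 2 of these. In the polysomal one, with size factors and with quantile normalization, RPTOR was -0.22 and -0.14, TSC1 -0.096 and -0.23, and RPS6KB1 -0.095 and -0.20. RHEB was -0.23 with size factors and -0.17 without the 3 libraries. In the difference of effects size factors gave -0.13 for RHEB, -0.018 for TSC1 and -0.35 for TSC2, and quantile normalization gave -0.22 for TSC1, -0.36 for TSC2 and -0.021 for RPS6KB1. RPTOR was 0.0075 with a pseudocount of 5 and 0.47 without the 3 libraries, and LAMTOR2 was 0.0028 without them. Between fractions in siCtrl cells size factors gave 0.97 for MLST8 and 1.16 for LAMTOR1, and leaving out the 3 libraries gave -0.16 for RPTOR, 0.050 for MLST8 and 0.059 for LAMTOR1. In siEIF3G cells size factors gave 0.32 for MLST8 and 0.21 for LAMTOR1, and a total without ribosomal protein genes gave -0.075 for RPTOR. The log2 ratio of MTOR to MLST8 differed by -0.039 between siRNAs in input RNA with a pseudocount of 1.

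With a library left out, the input knockdown difference ranged from -0.94 to 0.43 in MTOR, -0.0033 to 0.43 in RPTOR, -0.28 to 0.16 in MLST8, -0.70 to 0.26 in RHEB, -0.77 to 0.24 in TSC1, -0.28 to 0.040 in LAMTOR1 and -1.06 to 0.44 in RPS6KB1. The polysomal one ranged from -0.096 to 0.63 in RPTOR and -0.17 to 0.57 in RHEB. The difference of effects ranged from -0.37 to 0.35 in RPTOR, -0.33 to 0.11 in MLST8, -0.030 to 1.00 in RHEB, -0.089 to 0.93 in TSC1, -0.19 to 0.52 in TSC2, -0.17 to 0.047 in LAMTOR2 and -0.14 to 1.36 in RPS6KB1. Between fractions it ranged in siCtrl cells from -0.23 to 0.35 in RPTOR, -0.39 to 0.050 in MLST8 and -0.16 to 0.088 in LAMTOR1, and in siEIF3G cells from -0.25 to 0.41 in RPTOR. The log2 ratio differed between siRNAs by -0.10 to 0.28 for LAMTOR1 to LAMTOR2 and -1.24 to 0.87 for MTOR to MLST8 in input RNA, and by -0.87 to 0.31 for TSC1 to TSC2 in polysomal RNA. Depth is unknown, so counting error of the lowest values, such as RICTOR on polysomes, cannot be given.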
